A study of Mus musculus with 12 samples.

Results

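The 10 genes Fos, Fosb, Fosl2, Jun, Junb, Jund, Atf3, Atf4, Batf and Batf3, which encode AP-1 and ATF transcription factors, were followed across an RNA-seq experiment on mouse bone marrow-derived macrophages (BMDMs). They were picked by gene symbol from the 23847 gene rows of the expression tables, and all 10 members were found, each with 1 row. BMDMs are cultured cells that mature from marrow precursors, here from wild-type C57BL/6 mice of 8 to 12 weeks whose marrow cells were differentiated for 6 days with L929 cell supernatant, a source of M-CSF. Of 4 groups with 3 samples each, the control cells had no further agent, the IL-4 cells had 20 ng/ml IL-4 for 24 h, the LPS cells had 100 ng/ml LPS for 3 h, and the IL-4+LPS cells had the 24 h IL-4 pretreatment and then LPS for 3 h. Whether the cells without LPS were harvested at the same time as those with LPS, and so whether IL-4 acted for the same total time in IL-4 and IL-4+LPS, was not stated. The comparisons ask how each signal alone changed the mRNA of these factors and whether an IL-4 pretreatment altered their LPS response.

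AP-1 is a dimer of basic leucine zipper proteins. Jun proteins pair with themselves, with Fos proteins or with ATF proteins, and the partner sets both how strongly the dimer activates and which DNA site it prefers. BATF proteins lack the large activation domains of Fos, pair with Jun proteins and bind with IRF4 or IRF8 at composite sites in immune cells, whereas ATF4 is the main effector of the integrated stress response and ATF3 is induced by stress and by Toll-like receptor signals. In macrophages some of these factors are known for early, short-lived induction by LPS through MAP kinases. A 3 h sample is taken after the first peak that immediate early genes such as Fos usually show.

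Expression was given as FPKM, which counts fragments per transcript length and per library size, so that values can be compared between genes per length. Differences were fitted with limma on log2(FPKM + 1) over 11191 rows that reached 1 FPKM in at least 1 sample, and a gene was called at an adjusted p under 0.05. Of the 10 members 9 passed that filter, and Fosb did not. A fold change on this scale understates the change of a gene with low values. The number of sequenced fragments was unknown, but its ratio between libraries, read from the lowest values, ran from 0.993 to 3.31 with control replicate 1 at 1. The study describes its replicates as individual animals from independent experiments, fewer in number than the animals, so some replicates shared an experiment. No source used here says which replicate number belongs to which animal or experiment. In bulk RNA, fewer cells that express a gene and less RNA per cell cannot be told apart.

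The macrophage markers Csf1r, Emr1, Cd68 and Lyz2 were at 410.7 FPKM or more in all 12 samples. The summed FPKM of 8 such markers was 19438 to 20860 in control, 7833 to 8053 with IL-4, 16212 to 17272 with LPS and 7241 to 7426 with both. Lyz2 made up most of each sum. It was at 15344.5 to 16507 FPKM in control, 4734 to 5051 with IL-4, 12427 to 13435 with LPS and 4183 to 4506 with both. Of the other markers, Mertk ran from 9.19 to 38.3 FPKM and Fcgr1 from 12.1 to 90.3 FPKM over the 12 samples. After LPS 2 of the 8 markers were higher and 4 lower in limma, beside 16.9% and 57.7% of all tested rows. Mean Spi1 was 239 FPKM in control and 681 with LPS, mean Fcgr1 65.6 and 88.8, and mean Mertk 31.9 and 9.90. Of 6 lymphocyte markers all but Cd4 were at or below 0.149 FPKM throughout, the sum of the 6 being 9.74 to 11.7 FPKM in control, 0.619 to 1.06 with IL-4, 6.13 to 6.94 with LPS and 0.348 to 0.600 with both, and of 6 fibroblast and endothelial markers all but Pecam1 at or below 0.176 FPKM. The summed FPKM of 5 granulocyte markers ran from 314 to 839 in control, 213 to 397 with IL-4, 501 to 1016 with LPS and 420 to 836 with both. S100a8 and S100a9 made up most of each sum, and the lowest sum of each group was in replicate 1. Mean Mpo was 5.46 FPKM in control and 3.26 with LPS, and mean Elane 5.53 and 3.63. The means of S100a8, S100a9 and Camp were higher with LPS than in control. The part of any of these markers in the results below was not tested. Within every group the libraries numbered 1 stood apart from those numbered 2 and 3, on a first principal component of within-group deviations that held 28.15% of the variance. For 8 of the 9 tested members, replicate 1 of LPS and of IL-4+LPS lay outside replicates 2 and 3 on the same side. The same held for 60.5% of all tested rows, so results that rest on replicate 1 are given with and without it. Whether replicates 2 and 3 came from the same experiment was not stated. A p-value from replicates 2 and 3 only may therefore rest on spread within a single experiment. After LPS the median tested row was 0.44 lower on the log2 scale than in control, and after IL-4+LPS it was 0.41 lower than in IL-4, against shifts of -0.05 and -0.03 for IL-4 minus control and for IL-4+LPS minus LPS. When all libraries were scaled to 1 median, the LPS shift was -0.14.

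The stretch just upstream of the RefSeq transcription start is shown for 4 members: Fos and Jun, whose mRNA fell most after LPS, Junb, whose mRNA rose in the same cells, and Atf3, the most abundant member in control. The windows are from RefSeq on GRCm38.p6, which has mm10 coordinates, and all 10 members matched an entry. Each window of 250 bases before the start was searched on both strands for the AP-1 site TGANTCA, the CRE-type site TGANNTCA, its full form TGACGTCA, the STAT6 site (TTC and GAA with 4 bases between), the C/EBP-ATF response element TTGCATCA, and, by their usual consensus, a kappaB site and a serum response element. Capitals mark a match, and the Atf3 window stops before the first annotated exon base.
Fos, chr12:85473640-85473889, plus strand: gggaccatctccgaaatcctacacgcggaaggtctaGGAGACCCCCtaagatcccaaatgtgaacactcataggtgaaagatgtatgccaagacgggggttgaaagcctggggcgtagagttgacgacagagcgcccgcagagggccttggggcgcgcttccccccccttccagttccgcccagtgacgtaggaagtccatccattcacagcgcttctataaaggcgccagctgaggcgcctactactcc
Jun, chr4:95052223-95052472, minus strand: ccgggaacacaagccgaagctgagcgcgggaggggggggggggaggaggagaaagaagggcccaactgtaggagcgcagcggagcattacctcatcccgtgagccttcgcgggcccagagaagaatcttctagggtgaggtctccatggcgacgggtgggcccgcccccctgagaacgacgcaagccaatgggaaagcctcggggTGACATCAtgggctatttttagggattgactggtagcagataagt
Junb, chr8:84978749-84978998, minus strand: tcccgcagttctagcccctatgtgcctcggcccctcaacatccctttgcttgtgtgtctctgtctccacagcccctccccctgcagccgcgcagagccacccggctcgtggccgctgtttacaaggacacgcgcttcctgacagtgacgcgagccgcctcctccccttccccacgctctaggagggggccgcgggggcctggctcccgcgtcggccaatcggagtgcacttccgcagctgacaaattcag
Atf3, chr1:191183341-191183583, minus strand: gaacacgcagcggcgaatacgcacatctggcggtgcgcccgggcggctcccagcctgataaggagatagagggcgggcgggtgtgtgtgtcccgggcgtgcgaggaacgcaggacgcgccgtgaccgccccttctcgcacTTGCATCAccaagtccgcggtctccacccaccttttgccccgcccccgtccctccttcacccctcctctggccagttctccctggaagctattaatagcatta
In Fos the capitals mark a kappaB match on the opposite strand, from base -214 to base -205 before the start, and Fosb and Fosl2 also held a kappaB match, as did 3.90% of 32851 promoters. In Jun they mark the CRE-type match TGACATCA from base -45 to base -38, a site type that 11.9% of promoters held. In Atf3 they mark the C/EBP-ATF match from base -110 to base -103, which 0.791% of promoters held. No searched motif was matched in the window of Junb, Atf4, Batf or Batf3, and that of Jund held a CRE-type match only. Some windows not printed lay partly or wholly in annotated exons, with 250 bases in Fosl2, 163 in Batf3 and 51 in Batf. The Jund window ended at base 70697738, whereas the annotated gene starts at base 70698949. These are matches of letters and not measured binding. Bases more than 250 before the start were not searched, so a motif without a match here may still lie farther upstream.

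Some members are neighbours in the genome. Batf3 (chr1:191098414-191108943) and Atf3 (chr1:191170297-191183333) lay 61.4 kb apart on chromosome 1 with 1 other symbol of the tables, Fam71a, between them. Fos (chr12:85473901-85477270) and Batf (chr12:85686720-85709087) lay 209 kb apart on chromosome 12 with Jdp2, a further AP-1 family gene, between them. Over the 12 samples, which form 4 groups, Pearson's r of the log2 levels was 0.878 for Batf3 and Atf3 and -0.987 for Fos and Batf. Members on different chromosomes reached similar values, with 0.870 for Batf3 and Fosl2 and -0.988 for Fos and Junb. The part of genomic position was not tested.

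The 9 tested members split in direction after LPS. Relative to control, 4 were higher (Junb, Jund, Atf4 and Batf) and 3 were lower (Fos, Jun and Batf3), beside 16.9% of all tested rows called higher and 57.7% called lower. With all libraries scaled to 1 median the shares of all rows were 26.5% and 39.8%, and the members were again 4 higher and 3 lower. After IL-4 alone, 6 members were higher (Batf3, Fosl2, Atf3, Jun, Atf4 and Jund) and 0 were lower in limma at the adjusted threshold, beside 16% of rows higher and 21% lower. At an unadjusted p under 0.05, and by Tukey's test per gene, the count of lower members was also 0. The median member difference was 0.71 on the log2 scale against -0.05 over all tested rows.

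With LPS added after IL-4, 3 members were higher than in IL-4 (Junb, Jund and Batf) and 5 were lower (Fos, Jun, Atf3, Atf4 and Batf3), beside 15% and 57.9% of rows. Scaled to 1 median, the shares of all rows were 23.5% and 36.3%, and the members were 4 higher and 4 lower because Atf4 changed sign. Comparing IL-4+LPS with LPS, 3 members were higher (Batf3, Jund and Atf3) and 0 were lower in limma, beside 15% and 15.8% of rows. The count of lower members was also 0 at an unadjusted p under 0.05 and by Tukey's test per gene. By the interaction term, which asks whether IL-4 altered the LPS response, 2 members passed, Jun and Atf4, both negative, beside 4.63% of rows with a negative and 4.58% with a positive term. These 4 differences and the interaction share samples and are not independent of each other.

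**Figure D1:**
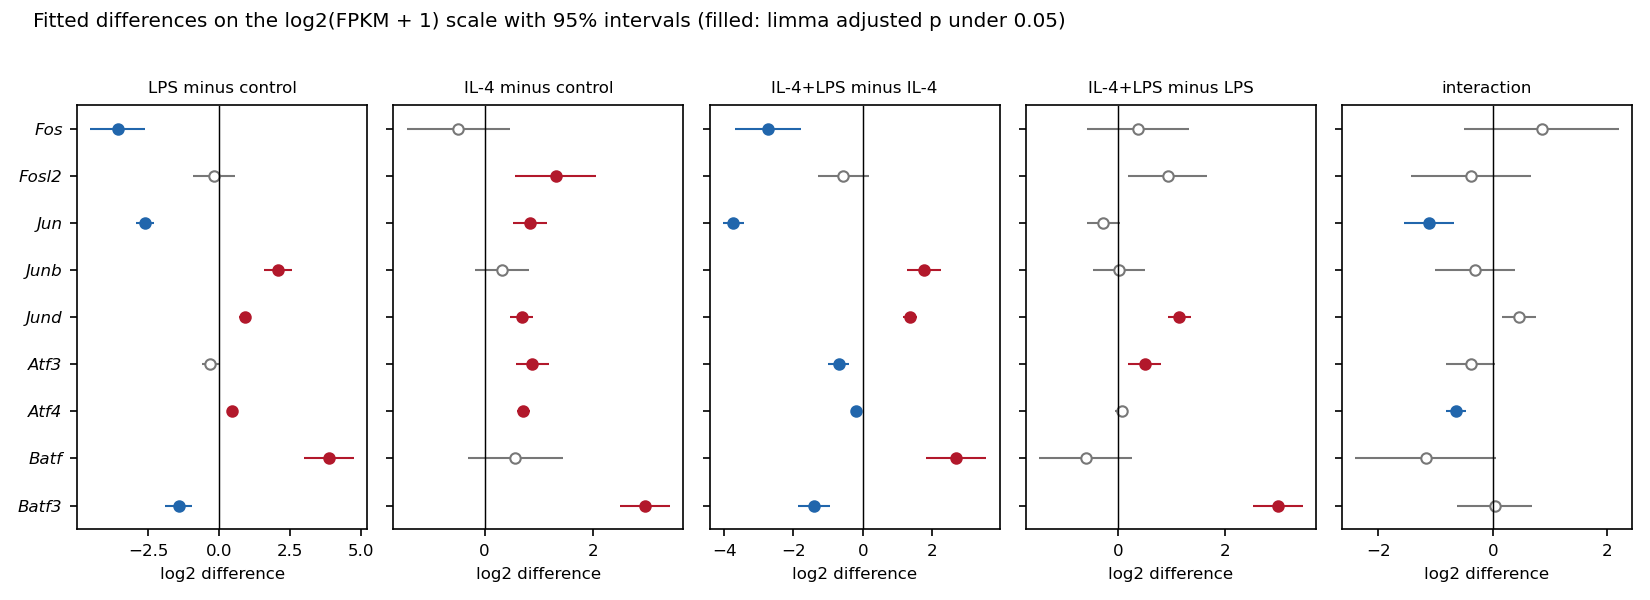
Fitted log2(FPKM + 1) differences of the 9 tested members in 4 comparisons and in the interaction (x axis, a separate scale per panel), with 95% intervals; filled points passed the adjusted threshold, red higher and blue lower. Batf3 stood at 2.95 for IL-4 minus control and 2.98 for IL-4+LPS minus LPS, and Fos and Jun were lowest for LPS minus control at -3.58 and -2.62.

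Among the Jun proteins, Jun fell after LPS while Junb and Jund rose. Jun (chr4:95049036-95052222), the founding member with the strongest activation domain, was at 40.03, 46.2 and 45.1 FPKM in control replicates 1, 2 and 3, 70.2, 81.9 and 84.0 with IL-4, 6.80, 5.83 and 6.25 with LPS and 6.58, 4.60 and 4.05 with both. All IL-4 samples were above all control samples, and all 6 samples with LPS were far below both. After LPS the mRNA fell by 2.62 on the log2 scale (SE 0.14, adjusted p = 7.55e-08, limma), and after IL-4 it rose by 0.83 (adjusted p = 0.00105). In IL-4+LPS it was 3.73 lower than in IL-4 (log2 difference -3.73, adjusted p = 8.04e-09).

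The LPS response of Jun was larger after IL-4, with an interaction of -1.11 (SE 0.20, adjusted p = 0.00568), negative in 3 of 3 replicate numbers. The interaction passed the threshold in every alternative tried, from -1.28 to -0.99. Between IL-4+LPS and LPS the log2 difference was -0.28 (95% interval -0.59 to 0.03, adjusted p = 0.155). That difference passed when IL-4+LPS replicate 1 was left out (-0.45, adjusted p = 0.00878) and with replicates 2 and 3 only (-0.40, adjusted p = 0.00264). Junos, an annotated antisense gene, overlaps 7.28% of the exonic bases of Jun, and the library kit did not mark strand.

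Junb, a Jun protein that is a weaker activator and can oppose Jun at some sites, had the opposite response. It was at 57.6, 56.0 and 54.9 FPKM in control, 70.0, 70.2 and 71.4 with IL-4, 179, 291 and 268 with LPS and 166, 307 and 282 with both. The 6 samples with LPS were all above the 6 without, and replicate 1 was the lowest of its group in both LPS groups. The LPS difference was 2.08 (SE 0.22, adjusted p = 1.04e-05) without IL-4 and 1.77 (adjusted p = 4.09e-05) after it. For IL-4+LPS minus LPS the log2 difference was 0.01 (95% interval -0.48 to 0.51, adjusted p = 0.977). IL-4 and control did not overlap, but the log2 difference of 0.32 (95% interval -0.17 to 0.82) did not pass (adjusted p = 0.287); with replicates 2 and 3 only it was 0.35 and passed (adjusted p = 0.00306).

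Jund (chr8:70697739-70700616), which is usually present in resting cells, rose with each signal and stood highest with both. Its values were 43.0, 40.4 and 38.7 FPKM in control, 71.8, 60.9 and 65.6 with IL-4, 85.2, 73.7 and 73.0 with LPS and 154, 188 and 173 with both. The groups followed in that order with no overlap. Jund rose by 0.68 after IL-4 (SE 0.095, adjusted p = 0.000322) and by 0.91 after LPS (adjusted p = 8.78e-06), and IL-4+LPS was 1.14 above LPS (adjusted p = 9.83e-06) and 1.36 above IL-4 (adjusted p = 5.79e-07).

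The Jund interaction was 0.45 (95% interval 0.16 to 0.75) and did not pass (adjusted p = 0.062). It passed when replicate 1 was left out of IL-4 (0.52, adjusted p = 0.0467), of LPS (0.53, adjusted p = 0.0323) or of IL-4+LPS (0.53, adjusted p = 0.0288), and with replicates 2 and 3 only (0.62, adjusted p = 0.00303). An annotated antisense gene, Gm11175, overlaps 52.6% of the exonic bases of Jund. Without strand, reads of that gene and of Jund cannot be told apart, so the Jund values are uncertain.

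**Figure D2:**
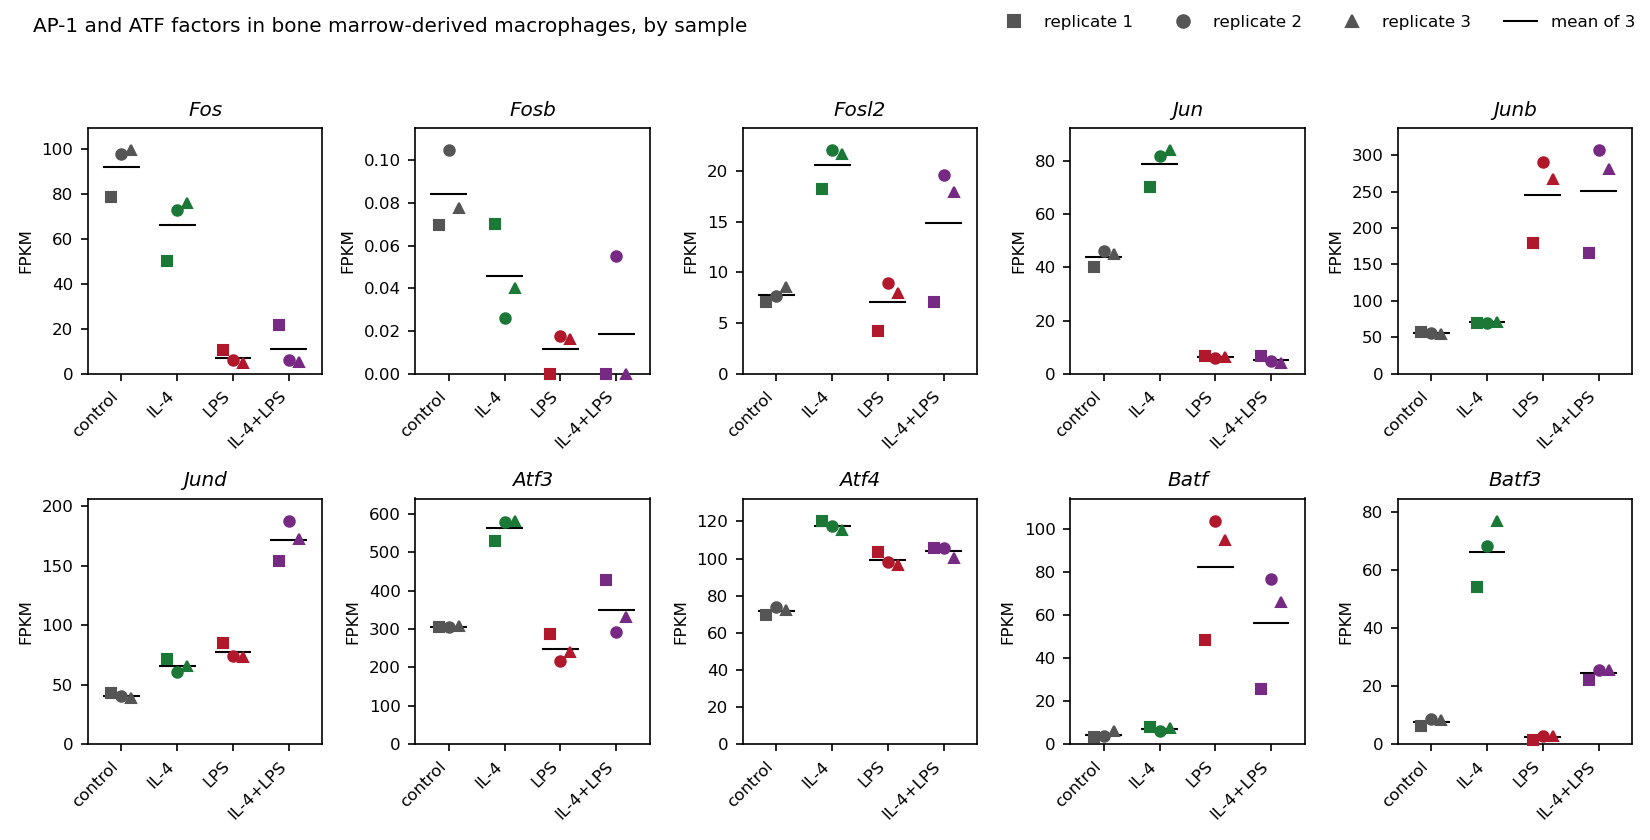
FPKM of each of the 10 members in each of the 12 samples (y axis, a linear scale from 0 set per gene) by group, with replicates 1, 2 and 3 as squares, circles and triangles and a line at the mean of 3. Jun and Fos sat below 22 FPKM in every sample with LPS, and replicate 1 of Fos, Fosl2, Junb and Batf lay away from replicates 2 and 3 in both LPS groups.

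The makeup of the Jun family differed between the groups accordingly. Of the summed FPKM of Jun, Junb and Jund, Jun held 31.1% ± 2.30 (SD, n = 3) in control and 36.5% ± 2.98 in IL-4, but 1.96% ± 0.490 in LPS and 1.27% ± 0.643 in IL-4+LPS. The share of Junb went from 39.9% ± 0.898 in control to 73.9% ± 6.85 in LPS and was 57.9% ± 6.17 in IL-4+LPS. Jund held 24.1% ± 6.36 in LPS and 40.8% ± 5.53 in IL-4+LPS, where replicate 1 had 47.2% and the others 37.6% and 37.7%. The summed level was higher with each signal, at 141 ± 1.94 FPKM in control, 215 ± 4.97 with IL-4, 329 ± 52.0 with LPS and 428 ± 90.4 with both. These shares restate the levels above and were not tested.

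**Figure D3:**
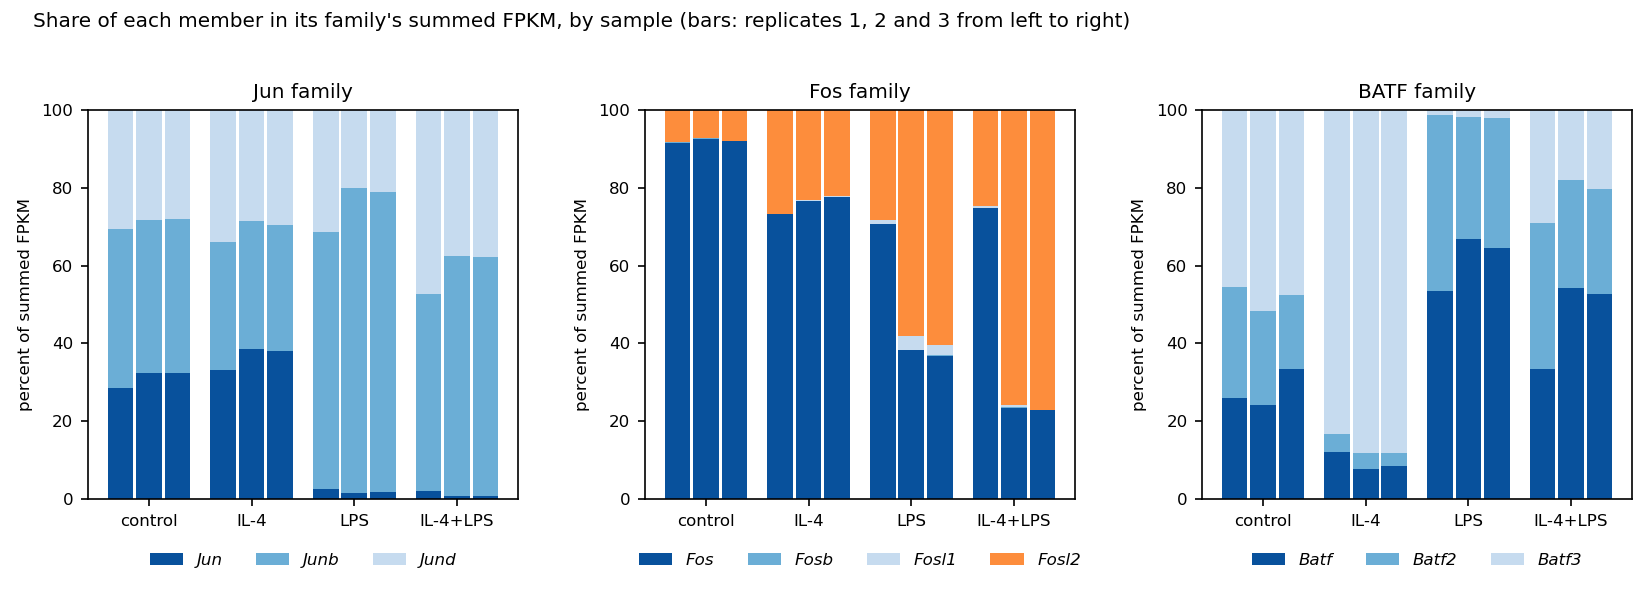
Percent of the summed FPKM of the Jun, Fos and BATF families held by each gene (y axis, 0 to 100) in every sample, with replicates 1, 2 and 3 side by side in each group. Jun made up 28.5% to 38.5% of its family without LPS and 0.884% to 2.51% with it, and Batf3 made up 83.4% to 88.3% of the BATF family in IL-4.

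Among the Fos proteins, which cannot pair with themselves and need a Jun partner, Fos itself fell after LPS and Fosl2 rose after IL-4. Fos, the classic immediate early gene, was at 78.6, 97.4 and 99.2 FPKM in control, 49.9, 72.6 and 76.0 with IL-4, 10.4, 5.89 and 4.85 with LPS and 21.5, 6.04 and 5.33 with both. Every sample with LPS was below every sample without, and replicate 1 was the highest in both LPS groups and the lowest in the others. The LPS difference was -3.58 (SE 0.43, adjusted p = 2.5e-05, limma), the 37th lowest of 11191 rows, and after IL-4 it was -2.72 (adjusted p = 0.000209). That 3 h level is a single time point after LPS and shows nothing of an earlier peak.

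Between IL-4 and control the Fos samples did not overlap, and the difference was negative in 3 of 3 replicate numbers. The fitted value of -0.48 did not pass (95% interval -1.44 to 0.47, adjusted p = 0.42), and with replicates 2 and 3 only it was -0.40 and passed (adjusted p = 0.0105).

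IL-4 pretreatment gave no called difference of Fos under LPS, where the log2 difference was 0.37 (95% interval -0.58 to 1.33, adjusted p = 0.562). It was 0.97 in replicate 1, 0.03 in replicate 2 and 0.11 in replicate 3, and -0.21 when IL-4+LPS replicate 1 was left out. The interaction of Fos, 0.85, did not pass either (95% interval -0.50 to 2.20, adjusted p = 0.45), and with replicates 2 and 3 only it was 0.47 (adjusted p = 0.0389).

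Fosl2 (chr5:32136472-32157839), which encodes Fra-2, a Fos protein without a strong activation domain, was at 7.08, 7.61 and 8.54 FPKM in control, 18.2, 22.0 and 21.7 with IL-4, 4.18, 8.93 and 7.95 with LPS and 7.10, 19.6 and 17.9 with both. The IL-4 samples were above all control and LPS samples, while replicate 1 was the lowest in each group. IL-4 raised Fosl2 by 1.30 (SE 0.33, adjusted p = 0.0115). LPS gave -0.18 (95% interval -0.91 to 0.56, adjusted p = 0.647), a value whose sign changed when LPS replicate 1 was left out (0.11).

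IL-4+LPS was 0.93 above LPS for Fosl2 (95% interval 0.19 to 1.66) and did not pass (adjusted p = 0.0583). Without IL-4+LPS replicate 1 the difference was 1.35 and passed (adjusted p = 0.00206), and with replicates 2 and 3 only it was 1.07 (adjusted p = 0.000109). In these samples Fos and Fosl2 changed place. The ratio of Fosl2 to Fos was 0.0782 to 0.0900 in control and 0.285 to 0.365 in IL-4, but 1.52 and 1.64 in LPS replicates 2 and 3 and 3.25 and 3.36 in the same replicates of IL-4+LPS, against 0.401 and 0.331 in replicate 1 of the LPS and IL-4+LPS groups. Fosl2 thus exceeded Fos in 4 of the 6 samples with LPS, and Fos exceeded Fosl2 in both replicate 1 samples.

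Fosb, a close relative of Fos that is also induced early, did not reach 1 FPKM in any sample. It was at 0.0698, 0.105 and 0.0777 FPKM in control, 0.0703, 0.0262 and 0.0401 with IL-4, 0, 0.0179 and 0.0163 with LPS and 0, 0.0551 and 0 with both. A fit without the filter called its LPS difference of -0.10 (adjusted p = 0.00896), but all values are far below 1 FPKM and no difference is read from them. Fosl1, which encodes the remaining Fos protein Fra-1, stayed at or below 0.57 FPKM in all 12 samples.

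Of the BATF genes, Batf rose with LPS, and Batf3 rose with IL-4 and fell with LPS. Batf was at 3.56, 3.995 and 5.90 FPKM in control, 7.77, 5.94 and 7.35 with IL-4, 48.2, 104 and 94.9 with LPS and 25.6, 76.7 and 66.3 with both. All samples with LPS were above all samples without, with replicate 1 the lowest in both LPS groups. LPS raised Batf by 3.87 (SE 0.39, adjusted p = 7.03e-06), the 110th highest of 11191 rows and 14.7-fold on this scale, and by 2.70 after IL-4 (adjusted p = 0.000117). For IL-4 minus control the value was 0.56 (95% interval -0.31 to 1.44, adjusted p = 0.294).

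Within the replicate numbers Batf differed by -0.89, -0.43 and -0.51 on the log2 scale between IL-4+LPS and LPS, but the fitted -0.61 did not pass (95% interval -1.48 to 0.26, adjusted p = 0.278). Its interaction of -1.17 also missed the threshold (adjusted p = 0.232), and with replicates 2 and 3 only it was -0.85 (adjusted p = 0.0453).

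Batf3, best known as a factor that conventional dendritic cells of the cross-presenting type depend on, had the largest IL-4 difference of the members. It was at 6.22, 8.56 and 8.37 FPKM in control, 54.0, 68.2 and 77.0 with IL-4, 1.27, 2.69 and 2.97 with LPS and 22.1, 25.5 and 25.5 with both. No neighbouring groups overlapped in the order IL-4, IL-4+LPS, control and LPS. IL-4 raised it by 2.95 (SE 0.21, adjusted p = 3.08e-06), the 43rd highest of 11191 rows, and IL-4+LPS was 2.98 above LPS (adjusted p = 2.96e-06). The LPS difference was -1.43 (adjusted p = 0.000106) without IL-4 and -1.40 (adjusted p = 0.000142) after it, and the interaction was 0.03 (95% interval -0.63 to 0.69, adjusted p = 0.97).

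Of 5 dendritic cell markers, Flt3, Xcr1, Clec9a and Itgae were at or below 0.205 FPKM in all 12 samples. Their summed level with Zbtb46 was 0.358 to 0.487 FPKM in control, 0.386 to 0.657 with IL-4, 0.765 to 0.927 with LPS and 2.35 to 3.06 with both. Zbtb46, a transcription factor of conventional dendritic cells, was at 0 to 0.135 FPKM in control, 0.166 to 0.474 with IL-4, 0.487 to 0.562 with LPS and 1.94 to 2.83 with both, so it reached 1 FPKM only in IL-4+LPS.

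Irf4 and Irf8, the IRF partners with which BATF proteins bind DNA, were read beside them. Irf4 was at 1.15 to 1.50 FPKM in control, 19.2 to 20.6 with IL-4, 0.0649 to 0.249 with LPS and 3.61 to 3.99 with both. This is the group order of Batf3. Irf8 was at 75.7 to 86.4 FPKM in control, 43.1 to 54.3 with IL-4, 31.2 to 33.4 with LPS and 132 to 205 with both, so it was lower with either signal alone and highest with both. Its LPS response differed after IL-4 by 3.16 (adjusted p = 2.62e-05).

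Batf2, the third BATF gene and an LPS-inducible factor, rose by 3.30 after LPS (adjusted p = 5.05e-09), from 3.33 to 4.05 FPKM in control to 40.6 to 49.1. Of the BATF family's summed FPKM, Batf3 held 48.2% ± 3.12 in control, 86.6% ± 2.78 with IL-4, 1.72% ± 0.305 with LPS and 22.4% ± 5.73 with both (SD, n = 3). Batf held 27.9% ± 5.00, 9.36% ± 2.30, 61.7% ± 7.14 and 46.9% ± 11.6 in the same groups. The ratio of Batf to Batf3 was 0.467 to 0.705 in control and 32.0 to 38.5 in LPS, and 1.16 to 3.00 in IL-4+LPS.

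Atf3, a repressor of many inflammatory genes in macrophages, was at 305, 304 and 309 FPKM in control, 529, 578 and 582 with IL-4, 287, 216 and 241 with LPS and 428, 293 and 331 with both. It was the most abundant member in every control and IL-4 sample, and its IL-4 samples stood above all others. Junb was above it in LPS replicates 2 and 3 and in IL-4+LPS replicate 2. IL-4 raised it by 0.88 (SE 0.14, adjusted p = 0.000634), and adding LPS after IL-4 lowered it by 0.70 (log2 difference -0.70, adjusted p = 0.000849).

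LPS alone gave Atf3 -0.31 (95% interval -0.61 to -0.01), which did not pass (adjusted p = 0.0578). That is 0.13 above the shift of the median row, and with all libraries scaled to 1 median the value was 0.06 (adjusted p = 0.695). With quantile normalization it was -0.52 and passed (adjusted p = 0.0168), and the unscaled value also passed with the replicate block (adjusted p = 0.0367) and when only the groups compared were fitted (adjusted p = 0.0424). Without LPS replicate 1 it was -0.42 and passed (adjusted p = 0.0184). IL-4+LPS was 0.49 above LPS (adjusted p = 0.0193), higher in 3 of 3 replicate numbers. This call was lost without LPS replicate 2 (0.39, adjusted p = 0.0741) or LPS replicate 3 (0.47, adjusted p = 0.0575), and also when only the groups compared were fitted (adjusted p = 0.0991). Quantile normalization and a fit without the filter on low values lost the call as well.

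Atf4 (chr15:80255184-80257541) is controlled largely at translation, so its mRNA is only part of its regulation. The mRNA was at 69.4, 73.8 and 72.1 FPKM in control, 120, 118 and 115 with IL-4, 103, 98.2 and 96.5 with LPS and 106, 106 and 100 with both. All treated samples were above all control samples, and the groups LPS and IL-4+LPS overlapped. IL-4 raised it by 0.71 (SE 0.054, adjusted p = 4.98e-06) and LPS by 0.46 (adjusted p = 1.92e-05). The difference of IL-4+LPS from LPS was 0.06 (95% interval -0.06 to 0.18, adjusted p = 0.422).

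The LPS response of Atf4 was 0.46 without IL-4 and -0.18 (adjusted p = 0.0118) after it, an interaction of -0.64 (SE 0.076, adjusted p = 0.000718) that was negative in 3 of 3 replicate numbers and passed in every alternative tried, from -0.66 to -0.59. The sign of the second of these responses depended on the scale. With all libraries scaled to 1 median, IL-4+LPS was 0.18 above IL-4 (adjusted p = 0.0103), while the unscaled median row moved by -0.41. The median interaction over all rows was 0.04.

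Genes known as ATF4 targets, most of them for amino acid synthesis, transport and tRNA charging, were mostly higher after IL-4. Of 14 listed genes 13 were tested, and 9 were higher and 1 lower, beside 16% and 21% of all tested rows. Their median was 0.65 against -0.05 over all rows. Psat1, an enzyme of serine synthesis, went from 8.24 to 10.6 FPKM in control to 32.8 to 33.2 in IL-4 (1.67, adjusted p = 8.1e-07). Asns, asparagine synthetase, rose by 1.01 (adjusted p = 0.00104) and the amino acid transporter gene Slc7a5 by 0.92 (adjusted p = 0.0029). The lower gene was Sesn2 (-0.59), a sensor of leucine, named after its value was seen.

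After LPS, 9 of the 13 ATF4 targets were higher and 2 lower, beside 16.9% and 57.7% of all tested rows. Their median was 0.55 against -0.44 over all rows. Nupr1, a stress-induced nuclear protein, rose by 4.97 (adjusted p = 1.1e-07) and Slc7a11, the cystine transporter, by 3.48 (adjusted p = 3.64e-09), while Ddit3, which encodes the stress factor CHOP, fell by 1.66 (adjusted p = 0.00382). In IL-4+LPS against LPS 4 were higher and 0 lower in limma, beside 15% and 15.8% of all tested rows. Psat1 was at 1.13, Asns at 0.49 and Phgdh, the first enzyme of serine synthesis, at 0.36. The count of lower targets in that comparison was also 0 at an unadjusted p under 0.05 and by Tukey's test per gene, by which 1 was higher. With LPS added after IL-4, 3 targets were higher and 3 lower than in IL-4, with a median of 0.03, beside 15% and 57.9% of all tested rows. After scaling to 1 median they were 8 higher and 3 lower, beside 23.5% and 36.3%. By the interaction term 2 of 13 passed, both negative, with a median of -0.41, beside 4.63% of rows with a negative term. The targets listed are shared with other stress factors, and their change beside Atf4 was not tested as a set.

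**Figure D4:**
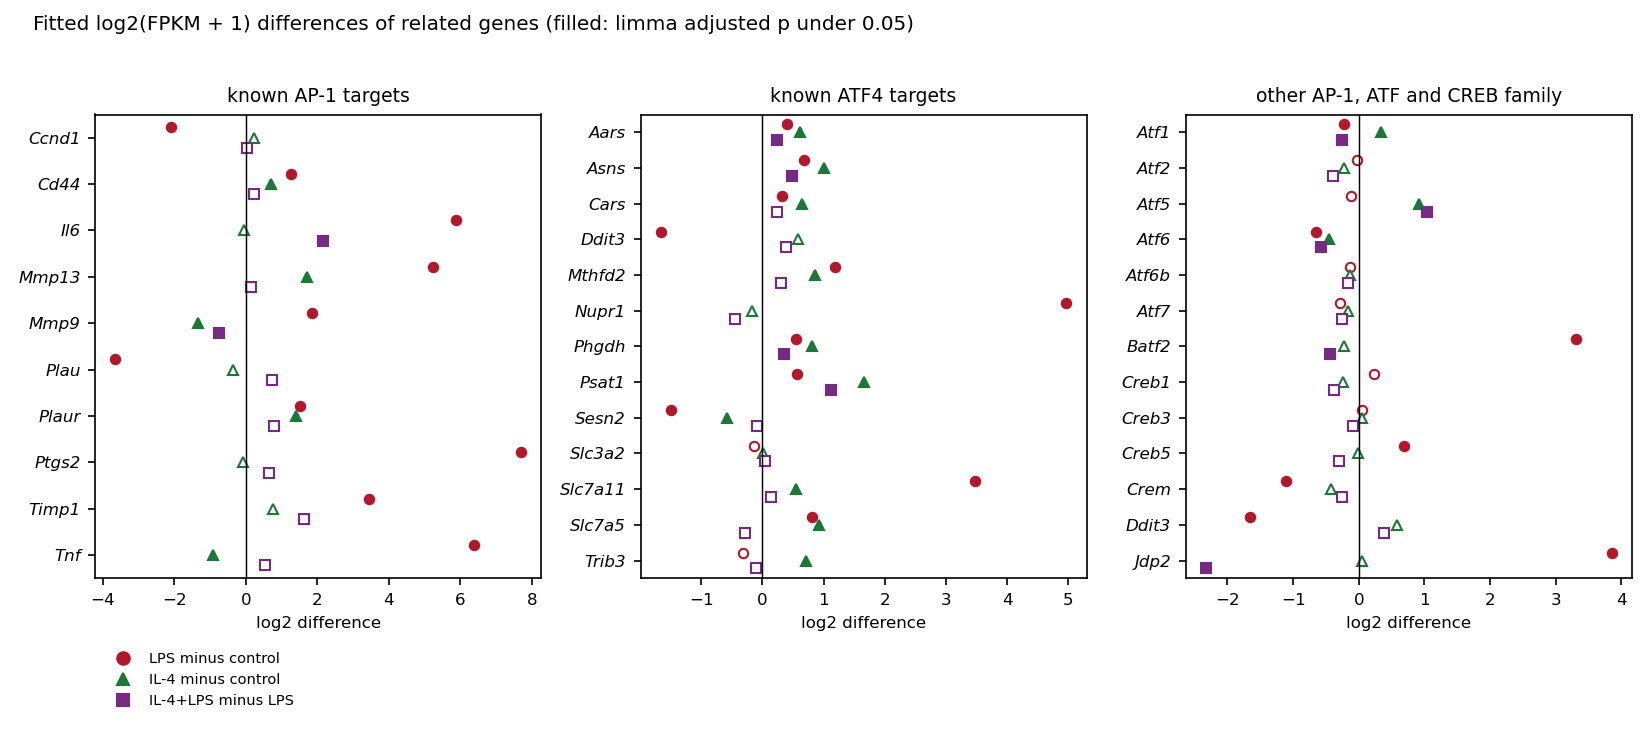
Fitted log2(FPKM + 1) differences (x axis) of known AP-1 targets, known ATF4 targets and the other AP-1, ATF and CREB genes, for LPS minus control (circles), IL-4 minus control (triangles) and IL-4+LPS minus LPS (squares); filled symbols passed the adjusted threshold. Among AP-1 targets Ptgs2, Tnf and Il6 stood at 7.70, 6.37 and 5.87 after LPS, and Jdp2 was at 3.85 after LPS and -2.32 for IL-4+LPS minus LPS. Il6 passed the filter only through samples with LPS.

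Genes known as AP-1 targets were higher after LPS, while Fos and Jun mRNA were lower at that time. Of 10 listed and tested, 8 were higher and 2 were lower, beside 16.9% and 57.7% of all tested rows, with a median of 2.64. The largest were Ptgs2, the inducible cyclooxygenase, at 7.70 (adjusted p = 4.34e-08), and the cytokine genes Tnf at 6.37 (adjusted p = 3.45e-09) and Il6 at 5.87 (adjusted p = 9.04e-08). Il6 was at 0 to 0.352 FPKM in control and 0 to 0.190 with IL-4, so it passed the filter only through samples with LPS. Its call, and its part in the count and the median, were therefore partly fixed by the filter. Ptgs2 was at 0.211 to 1.06 FPKM in control and 0.279 to 0.595 with IL-4. The lower ones, named after their values were seen, were Plau, the urokinase gene, at -3.65 and the cyclin gene Ccnd1 at -2.08. Like Fos, Plau was highest in replicate 1 within LPS, at 13.6 FPKM in LPS replicate 1 against 6.23 and 4.75 in replicates 2 and 3. These genes also respond to NF-kappaB and other factors that LPS activates.

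After IL-4, 3 of the 10 AP-1 targets were higher and 2 lower, beside 16% and 21% of all tested rows, with a median of 0.09. Mmp13, a collagenase, rose by 1.70 (adjusted p = 0.0058) and Plaur, the urokinase receptor, by 1.40 (adjusted p = 0.00306), whereas Mmp9, a gelatinase, fell by 1.34 (adjusted p = 0.000262). In IL-4+LPS against LPS, Il6 was higher by 2.17 (adjusted p = 0.000525) and Mmp9 lower by 0.75 (log2 difference -0.75, adjusted p = 0.00957), and the other 8 did not pass. These counts of 1 higher and 1 lower of 10 stand beside 15% and 15.8% of all tested rows.

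Of the other AP-1, ATF and CREB genes 14 were listed and 13 tested. After LPS 3 were higher and 4 lower, with a median of -0.11, beside 16.9% and 57.7% of all tested rows. With all libraries scaled to 1 median they were 5 higher and 3 lower, beside 26.5% and 39.8%. Jdp2, a partner of Jun that represses AP-1 sites and lies between Fos and Batf, was at 3.80, 4.77 and 4.54 FPKM in control, 5.06, 4.45 and 4.16 with IL-4, 55.4, 99.8 and 80.4 with LPS and 7.74, 20.3 and 18.8 with both. LPS raised it by 3.85 (adjusted p = 1.27e-06), and in IL-4+LPS it was 2.32 below LPS (log2 difference -2.32, adjusted p = 0.000258). Its interaction of -2.37 passed (adjusted p = 0.00715), and whether it differed from that of Batf was not tested.

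Of the same list 2 genes were higher and 1 lower after IL-4, beside 16% and 21% of all tested rows. In IL-4+LPS against LPS 1 was higher and 4 were lower, beside 15% and 15.8%. Atf5, a stress-responsive relative of Atf4, was higher by 0.91 after IL-4 (adjusted p = 0.000674) and by 1.04 in IL-4+LPS against LPS (adjusted p = 0.000316). Atf1, a CREB relative, was 0.33 higher after IL-4 (adjusted p = 0.0035). Atf6, a sensor of endoplasmic reticulum stress, was lower in both, at -0.45 (adjusted p = 0.00862) and -0.57 (adjusted p = 0.00252).

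The regulators upstream of Fos transcription were read next. Serum response factor, encoded by Srf, binds the Fos promoter with Elk proteins or with the cofactors encoded by Mkl1 and Mkl2. Of 6 such genes 0 were higher in limma (also 0 at an unadjusted p under 0.05 and by Tukey's test per gene) and 5 lower after LPS, with a median of -0.47, close to the shift of all rows, and with all libraries scaled to 1 median 0 were higher and 2 lower. Of all tested rows 16.9% were higher and 57.7% lower, and 26.5% and 39.8% after that scaling. Mkl1 fell from 22.5 to 24.5 FPKM in control to 4.21 to 5.43 in LPS (-2.09, adjusted p = 1.14e-08), Mkl2 by 0.75 (adjusted p = 0.00205) and Srf by 0.49 (adjusted p = 0.00758). The difference of Srf was close to that of the median row, -0.44. After IL-4 1 was higher, Mkl2 at 1.05 (adjusted p = 0.000857), and 2 were lower, with Elk3 at -0.93 (adjusted p = 1.72e-05). Of all tested rows 16% were higher and 21% lower after IL-4.

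Of 12 MAP kinase pathway genes that act upstream of AP-1, 11 were tested. After LPS 3 were higher and 4 lower, with a median of -0.12, beside 16.9% and 57.7% of all tested rows. After scaling to 1 median 6 were higher and 2 lower, beside 26.5% and 39.8%. Mapkapk2, a p38 effector kinase, rose by 3.00 (adjusted p = 1.45e-06), Map3k8, the kinase TPL2, by 1.60 (adjusted p = 8.34e-05) and Map2k4, an activator of JNK, by 1.30 (adjusted p = 3.25e-05). After IL-4 0 were higher in limma and 5 lower, beside 16% and 21% of all tested rows, with a median of -0.26. Mapk14, which encodes p38 alpha, was at -0.85 (adjusted p = 4.14e-05) and Map3k8 at -0.82 (adjusted p = 0.0168). The count of higher genes after IL-4 was 2 at an unadjusted p under 0.05 and 0 by Tukey's test per gene.

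Other immediate early genes did not share 1 direction with Fos and Jun. Of 10 listed, 9 were tested, and after LPS 2 were higher and 4 lower, beside 16.9% and 57.7% of all tested rows. Their median was 0.15, and after scaling to 1 median 4 were higher and 4 lower, beside 26.5% and 39.8%. The lower ones included Egr2, a zinc finger factor, at -2.34 (adjusted p = 0.00132) and Myc, a growth regulator, at -1.48 (adjusted p = 1.55e-05). Zfp36, which encodes an mRNA-destabilising protein, rose by 2.29 (adjusted p = 3.9e-05) and Ier3 by 2.03 (adjusted p = 0.000148). After IL-4 4 were higher and 1 lower, beside 16% and 21% of all tested rows. Ier3 at 1.89 and Egr2 at 1.86 were higher, and Nr4a1, a nuclear receptor, was lower at -1.68. Myc had an interaction of -1.33 (adjusted p = 0.00585), of the same sign as that of Jun.

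For each member the genes whose log2(FPKM + 1) followed it most closely over the 12 samples were found among 10194 other genes, by Pearson's r. The 12 samples form 4 treatment groups and share the offset of replicate 1, so a high r mainly states the same order of groups. Fos was most like Bin3 (r = 0.994), Ankrd46 (0.991) and Nfam1 (0.990), and Jun most like Gna11 (0.995), Heatr5a (0.994) and Gtf3c4 (0.994). Junb was most like Upp1 (r = 0.995) and Gfi1 (0.994), and Jund like Apol7c (0.991), Ddhd1 (0.981) and Ccl2 (0.979). Fosl2 was most like Chpf (r = 0.976), Isyna1 (0.954) and Ndufb6 (0.944).

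Batf was most like Bcor (r = 0.992), Itgav (0.991) and Rab11fip1 (0.991). Batf3 was most like Nsdhl (r = 0.994) and Lss (0.994), both enzymes of cholesterol synthesis, and Vwf (0.991). Atf3 was most like Myof (r = 0.973), Mettl7a2 (0.972) and Hspd1 (0.970). Atf4 had the loosest companions, Rars (r = 0.939), Ralgds (0.938) and Cct6a (0.937), the first of them a tRNA synthetase gene. Among the members themselves, Fos and Junb had r = -0.988 and Junb and Batf r = 0.987, while Fos and Atf4 had r = -0.327.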

How the data were processed

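Poly-A RNA of 12 BMDM samples (4 groups of 3, grouped by the sample titles) was sequenced by the authors from TruSeq libraries that do not mark strand. Per the labels and the submitters' processing notes the authors used TopHat2 2.0.7 and Cufflinks 2.0.2 with mm10, and deposited 1 table of FPKM values per sample; the gene annotation is not given in the sources used here. FPKM is scaled to each library's own fragments, so a change in RNA composition shifts all other genes, and fragment counts and intervals from counting could not be had. LPS is given as 100 ng/ml, as in the labels, whereas the study's methods give 100 nM.

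Rows were matched between tables by symbol, locus and start site (23847 rows, 254 symbols with more than 1 row). Rows with at least 1 FPKM in at least 1 sample were kept, as in the study, and limma 3.58.1 under R 4.3.3 was run on log2(FPKM + 1), as group means over all 12 samples and eBayes with trend, with two-sided p-values adjusted by Benjamini-Hochberg over 11191 rows within each contrast at 0.05. The script was first tested on simulated data. The interaction is IL-4+LPS minus IL-4, minus LPS minus control. Figures were drawn with Python 3.11.15 and matplotlib 3.10.9.

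The members and the gene lists were chosen with earlier results of these data known. Named genes were the 10 members, up to 3 called genes of each list with the largest difference between LPS and control, IL-4 and control, or IL-4+LPS and LPS, and the 3 genes most like each member by Pearson's r, except for some genes that are not reported here. Genes of the lists named for the interaction, Plau, Ccnd1 and Sesn2 fall outside that rule. Alternatives were a pseudocount of 0.1, no filter, quantile and median scaling, a fit of the compared groups only, an ANOVA with Tukey test (described by the study for its IL-4 time course), a replicate block, replicates 2 and 3 only, and each replicate left out. For the interaction, the ANOVA alternative used a t-test of that term in place of Tukey's test, and its p-values were not adjusted over genes.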

Additional observations from a re-analysis of the deposited data

Results flagged for a closer look

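The LPS response of 2 members differed after IL-4 by the interaction term of the limma fit. For Jun it was -1.11 (adjusted p = 0.00568): LPS changed Jun by -2.62 in cells without IL-4, from 40.03, 46.2 and 45.1 to 6.80, 5.83 and 6.25 FPKM, and by -3.73 in IL-4-pretreated cells, from 70.2, 81.9 and 84.0 to 6.58, 4.60 and 4.05 FPKM.

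For Atf4 it was -0.64 (adjusted p = 0.000718). LPS changed Atf4 by 0.46 without IL-4 and by -0.18 after it, and the 3 groups with a signal lay between 96.5 and 120 FPKM against 69.4 to 73.8 FPKM in control. Both terms were negative in 3 of 3 replicate numbers. With replicates 2 and 3 only the count of members with a negative interaction was 4, with Atf3 (-0.47, adjusted p = 0.0201) and Batf (-0.85, adjusted p = 0.0453) added. The share of all rows called in that fit is not given here, so the higher count is not read as a result about the members.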

How the results depend on the processing

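Of the values of single members under the alternatives, 644 stayed on their side of the threshold, 25 newly passed, 5 no longer passed and 1 turned. The turned value was Atf4 in IL-4+LPS minus IL-4, at 0.18 with median scaling. Of the 644, 19 that passed in neither fit changed sign. With replicates 2 and 3 only, the members lower after IL-4 were 1 (Fos, -0.40, adjusted p = 0.0105), those lower for IL-4+LPS minus LPS 1 (Jun), and those with a positive and a negative interaction 2 and 4. Leaving out single libraries gave 0 to 1 members lower for IL-4+LPS minus LPS and 0 to 1 with a positive interaction. In these leave-out fits the member with a positive interaction was Jund. The interaction term of the ANOVA, a t-test per gene unadjusted over genes, also gave a count of 1 (Jund). The share of all rows called is not given for these fits, so their counts are not read as results about the members. The cause of these changes was not tested.

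No source used here ties a replicate number to an animal, culture or day. In 18 same-numbered pairs the correlation of within-group deviations had a mean of 0.124 (0.00236 to 0.386, over 0.1 in 11), and 9 of 12 samples were closest to their own number, which is a hint from the data and not the design. With the replicate block, 1 member had a positive interaction (Jund, adjusted p = 0.0428), and Atf3 after LPS and Fosl2 in both IL-4+LPS comparisons also passed. Of the values of other named genes, 1211 held and 49 no longer passed, and of the counts over other lists 2030 stayed within 1.5 times and 220 did not. Depth limits Fosb, Fosl1 and other rows under 1 FPKM.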

Other observations

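The MAF proteins are further basic leucine zipper factors. The small MAF proteins, which have no activation domain, included Maff, which rose by 3.10 (adjusted p = 4.45e-07) and Mafk, which rose by 0.84 (adjusted p = 5.56e-06) after LPS. Maf, the founding member of the family, fell by 2.31 after IL-4 (adjusted p = 2.7e-08), from 62.8 to 64.7 FPKM in control to 11.2 to 13.1 in IL-4, and Mafg by 0.57 (adjusted p = 0.00791).

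Of 7 genes upstream of ATF4 in the integrated stress response, 4 were higher and 3 lower after LPS, beside 16.9% and 57.7% of all tested rows. The kinases went different ways: Eif2ak2, the sensor of double-stranded RNA, rose by 2.32 (adjusted p = 2.11e-06), and Eif2ak3, the sensor of the endoplasmic reticulum, fell by 1.53 (adjusted p = 1.34e-06). Ppp1r15a, a phosphatase subunit that ends the response, rose by 2.20 (adjusted p = 1.32e-07), from 12.4 to 14.1 FPKM in control to 57.2 to 81.2 in LPS. After IL-4 only Eif2s1, the target of these kinases, passed among these 7 (0.51, adjusted p = 0.000194), beside 16% of all tested rows higher and 21% lower.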
